A study of Mus musculus with 6 samples.

Results

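The NRF2 antioxidant enzyme genes described here are Hmox1, Nqo1, Gclc, Gclm, Slc7a11, Gsr, Txnrd1, Srxn1, Gpx2 and G6pdx, chosen by name as well-known targets of the transcription factor NRF2. All 10 were found by symbol among the 21878 genes of the deposited expression table. The RNA was from crypts isolated from the intestine of C57BL/6 mice, with 2 libraries in each of 3 groups. Control mice had no abdominal irradiation (replicates 2 and 3), and AIR crypts were taken 3 days after abdominal irradiation (replicates 1 and 3). AIR + MPLA crypts were taken 3 days after the same irradiation from mice that also received MPLA, a detoxified lipid A that is an agonist of Toll-like receptor 4 (replicates 1 and 3). The MPLA group is named only by the sample titles. Radiation dose, MPLA dose and schedule, age and sex are not given in the sources at hand, and no group received MPLA without irradiation. The labels do not tie replicates to separate mice, and p-values therefore measure only the spread between these libraries, which may be technical.

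NRF2, encoded by Nfe2l2, is held in the cytoplasm by KEAP1, which passes it to a CUL3 ubiquitin ligase for destruction. Electrophiles and oxidants modify cysteines of KEAP1, NRF2 then accumulates, pairs with a small MAF protein and binds antioxidant response elements near its target genes, where BACH1 can act as a repressor. The targets make and recycle glutathione and thioredoxin, reduce peroxides and quinones, degrade heme and supply NADPH. In the intestine, GPX2 is the glutathione peroxidase typical of the epithelium, most abundant towards the crypt base.

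Values are FPKM, fragment counts scaled to transcript length and to the mapped fragments of the library, so that levels of different genes can be set side by side per length. Read numbers behind them are unknown. Steps between low values put the other libraries at roughly 0.742 to 0.953 of the depth of Control replicate 3. Each estimate is the most common ratio of low values. For Control replicate 2 (0.953) this held only 1.51% of the ratios, against 2.64 to 5.99% for the irradiated libraries. FPKM totals ran from 381669 to 492247. For Control replicate 2 the file of that sample (total 381669) and the series-table column matched to it by replicate number (total 503961) disagree, with no equal value above 0 among the 21878 genes. On log2(FPKM + 1), the series-table column correlated with Control replicate 3 at r = 0.997 across the 10415 tested genes, which are not independent replicates, and the own file at r = 0.972. The own file is used below, and the series-table value stands beside each member whose call or direction depends on it. All 8 crypt epithelium markers, among them Epcam and Krt8, were tested. They summed to 3835 and 4182 FPKM in Control, to 3281 and 2844 in AIR, where 3 of 8 passed as lower than in Control, and to 4128 and 4700 with MPLA, where 4 of 8 passed as higher than in AIR. T cell and intraepithelial lymphocyte markers summed to 79.3 and 105 FPKM in Control, to 20.1 and 29.9 in AIR, and to 12.3 and 18.2 with MPLA, with 5 of 5 tested lower than Control in both. Absorptive enterocyte markers (Fabp2, Apoa1 and 5 others) summed to 5787 and 7062 FPKM in Control, to 18486 and 13613 in AIR, and to 9722 and 11980 with MPLA.

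Tests were made with limma on log2(FPKM + 1), on the 10415 genes that reached 1 FPKM in 2 or more libraries, with Benjamini-Hochberg adjustment over all of them and a threshold of 0.05. Fold changes are on that scale, and those of low genes come out too small. The filter passed 9 of the 10 members, and Slc7a11 was left untested. Coordinates and promoter sequences are of GRCm38.p6 (RefSeq). The core of the antioxidant response element, TGACNNNGC, was searched on both strands from 250 bases before to 50 after each annotated start. The sequence table held starts for 7 members (Nqo1, Gclm, Slc7a11, Txnrd1, Srxn1, Gpx2 and G6pdx), and 4 of these 7 had a match, against 14.0% of all 27025 genes in the table and 12.4% of its 32851 promoters. The same letters lie within the longer recognition element of MAF proteins, so a match does not tell the elements apart, and it is a description of the letters only. The matches are shown for the glutathione, thioredoxin and NADPH members that carry them, 5′ to 3′ along the gene's strand, with the core in capitals, here read in its complementary form GCNNNGTCA.
Gclm, chr3:122245403-122245451, plus strand, core at bases -134 to -126 from the start: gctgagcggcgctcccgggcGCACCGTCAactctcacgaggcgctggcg
Txnrd1, chr10:82859094-82859142, plus strand, core at bases -92 to -84 from the middle of 3 annotated starts: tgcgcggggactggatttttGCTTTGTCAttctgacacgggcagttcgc
G6pdx, chrX:74428909-74428957, minus strand, core at bases -57 to -49: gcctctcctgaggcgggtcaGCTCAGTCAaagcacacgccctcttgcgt
Srxn1, chr2:152105542-152105570, plus strand, core at bases 29 to 37 from the start: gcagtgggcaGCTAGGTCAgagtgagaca
The windows of Nqo1, Slc7a11 and Gpx2 held no match.

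In unirradiated crypts the members ranged widely in level. Gpx2 (gene ID 14776, chromosome 12, 76792335 to 76795554) was the most abundant, at 487 FPKM in Control replicate 2 and 1089 in replicate 3, or 1102 for replicate 2 in the series table. Gsr, glutathione reductase, which returns oxidised glutathione to its reduced form (gene ID 14782, chromosome 8, 33653238 to 33698162), followed at 99.2 and 131 FPKM. Then came Txnrd1, cytosolic thioredoxin reductase (gene ID 50493, chromosome 10, 82833951 to 82897724), at 78.1 and 77.8 FPKM. The 3 reductases and peroxidases at the top kept this order in AIR and AIR + MPLA, with no overlap between neighbours.

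Srxn1, sulfiredoxin, which repairs overoxidised peroxiredoxins (gene ID 76650, chromosome 2, 152105524 to 152111376), was at 38.3 and 61.6 FPKM in Control. Its libraries overlapped those of Nqo1, the quinone reductase (gene ID 18104, chromosome 8, 107388225 to 107403205), at 46.3 and 47.8. Gclm, the modifier subunit of glutamate-cysteine ligase (gene ID 14630, chromosome 3, 122245487 to 122267215), was at 35.4 and 37.3. G6pdx, glucose-6-phosphate dehydrogenase, the entry to the NADPH-producing pentose phosphate pathway (gene ID 14381, chromosome X, 74409483 to 74428880), was at 26.7 and 28.7. Gclc, the catalytic subunit of glutamate-cysteine ligase, which sets the rate of glutathione synthesis (gene ID 14629, chromosome 9, 77754535 to 77794489), was the lowest of the 8 well-expressed members at 19.7 and 15.4.

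The remaining pair stood far below. Hmox1, heme oxygenase 1, which opens the heme ring (gene ID 15368, chromosome 8, 75093618 to 75100593), was at 0.416 and 0.462 FPKM in Control. Slc7a11, the cystine transporter subunit xCT (gene ID 26570, chromosome 3, 50364936 to 50499087), was at 0.0295 and 0.0342. Bulk crypts cannot show whether a low level means few cells with the transcript or little in each.

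**Figure D1:**
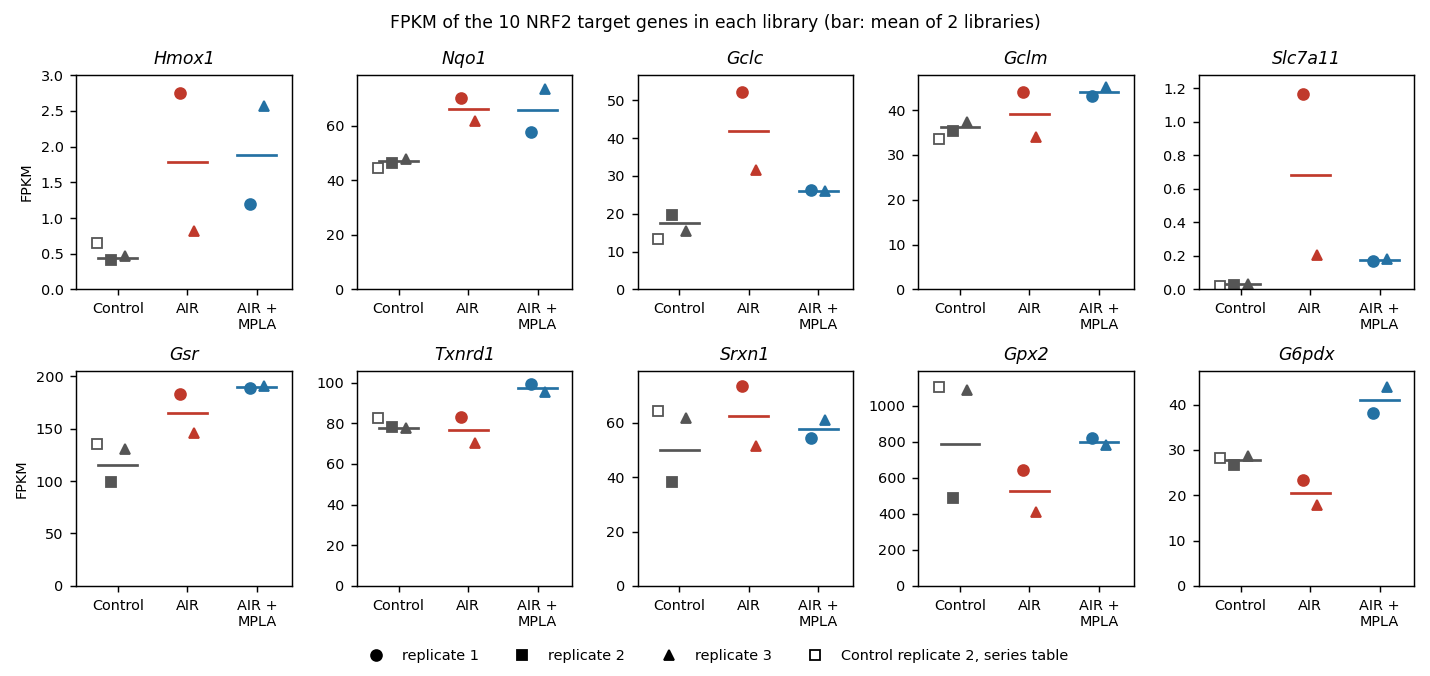
FPKM (vertical axes, from 0) of the 10 members in the Control, AIR and AIR + MPLA libraries; filled symbols are libraries, bars are means of 2, and open squares are the series-table values of Control replicate 2. Gclc is highest in the AIR libraries (52.2 and 31.7 FPKM), and G6pdx is lowest there (23.3 and 17.8).

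AIR was compared with Control for the members' levels 3 days after abdominal irradiation. Gclc rose, and none of the other 8 tested members passed. Gclc was at 52.2 and 31.7 FPKM in the AIR libraries against 19.7 and 15.4 in Control, so the groups did not overlap. Group means were 17.5 ± 3.03 FPKM for Control and 41.9 ± 14.5 for AIR (SD over 2 libraries), a log2 fold of 1.18 with SE 0.25 (limma adjusted p = 0.0180). The call was lost without AIR replicate 1 (log2 fold 0.83, limma adjusted p = 0.0771) and without Control replicate 3 (1.01, limma adjusted p = 0.0512). It was larger with the series-table value of 13.3 FPKM for Control replicate 2 (1.44, limma adjusted p = 0.00156). The enterocyte markers, 4 of 7 of which passed as higher in AIR and none as lower, moved with Gclc, and their part in its rise was not tested.

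Against a background of 26.7% of the 10415 tested genes called in this comparison, 8.05% higher and 18.7% lower, 1 of the 9 tested members was called. The median log2 fold of the tested members was 0.33, beside -0.13 over all tested genes. This median was the fold of Srxn1, which was -0.03 with the series-table value of Control replicate 2. The median and the count of higher members below include Hmox1, which entered the test only through irradiated libraries. Libraries did not overlap for 4 members that were higher in AIR (Hmox1, Nqo1, Gclc and Gsr) and 1 that was lower (G6pdx), against 22.2% and 41.7% of all tested genes.

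For Hmox1 the AIR libraries stood at 2.75 and 0.816 FPKM, above both Control libraries but differing between themselves by more than the lower one's distance to Control. Hmox1 entered the test only through irradiated libraries, since neither Control library reached 1 FPKM. The difference did not pass (log2 fold 0.86, 95% interval -0.01 to 1.72, limma adjusted p = 0.122). Slc7a11 was at 1.16 and 0.205 FPKM in AIR, where only replicate 1 reached 1 FPKM. With no filter on low values it did not pass either (log2 fold 0.65, 95% interval -0.02 to 1.31, limma adjusted p = 0.160). Macrophages also express both genes. Their 12 markers summed to 11.3 to 17.2 FPKM in Control, 11.2 to 17.6 in AIR and 10.9 to 14.4 in AIR + MPLA, and Cd163 was at 0 in 4 of the 6 libraries. Cd14 made up much of the sum and was lower in AIR (6.62 and 4.97 FPKM) than in Control (7.31 and 9.88). Both AIR libraries lay above both Control libraries for 6 of the 12 (Adgre1, Cd68, Csf1r, Mrc1, C1qa and C1qc), as they did for Hmox1 and Slc7a11, and below for 3 (Cd14, Itgam and Itgax). Of the higher ones C1qa was at 1.96 and 0.885 FPKM in AIR and 0.257 and 0.659 in Control. Neutrophil markers summed to 0 in both Control libraries, to 2.71 and 1.89 FPKM in AIR, and to 0.173 and 0.450 with MPLA, with Cxcr2 at 0 in all 6. In AIR the sum was mostly S100a8 (1.63 and 1.45) and S100a9 (0.755 and 0.437), with Csf3r at 0 in both libraries and Retnlg at 0.334 and 0. The part of the macrophage and neutrophil markers in the Hmox1 and Slc7a11 levels was not tested.

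Nqo1 was at 70.3 and 61.9 FPKM in AIR, above both Control libraries, and did not pass (log2 fold 0.48, 95% interval 0.07 to 0.89, limma adjusted p = 0.0817). Taking 44.6 FPKM from the series table for Control replicate 2 made it pass (log2 fold 0.51, limma adjusted p = 0.0145), as did upper-quartile (0.61, limma adjusted p = 0.0462) and median-ratio scaling of the libraries (0.66, limma adjusted p = 0.0382), which put the all-gene median at -0.02 and 0.03 in place of -0.13. Gsr was at 183 and 146 FPKM in AIR and did not pass (log2 fold 0.52, 95% interval 0.03 to 1.00, limma adjusted p = 0.102). The Gsr fold was 0.72 without Control replicate 3 and 0.32 without Control replicate 2. With the series-table value of 135 FPKM for Control replicate 2 it was 0.30 (95% interval -0.01 to 0.60, limma adjusted p = 0.0871).

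Gpx2 depended on Control replicate 2. Its AIR libraries, at 644 and 412 FPKM, lay on both sides of the own-file value of 487, and the difference did not pass (log2 fold -0.50, 95% interval -1.44 to 0.44, limma adjusted p = 0.370). With the series-table value of 1102 FPKM both Control libraries lay above both AIR libraries, and Gpx2 passed as lower in AIR (log2 fold -1.09, SE 0.21, limma adjusted p = 0.00300). It also passed without Control replicate 2 (-1.08, limma adjusted p = 0.0226) and turned positive without Control replicate 3 (0.08, limma adjusted p = 0.862). Paneth cell markers, of cells that share the crypt base, split the Control values likewise. The 6 of them summed to 14908 FPKM in the own file of replicate 2, 55867 in its series-table column and 44901 in replicate 3. In AIR they summed to 6857 and 7960, in the opposite order to Gpx2. Defa24 made up most of these sums (4725 and 5452 FPKM), and Mmp7 alone of the 6 ran in the order of Gpx2 (120 and 107). With MPLA Gpx2 was at 819 and 783 FPKM, while the Paneth markers summed to 11693 and 8386, below every Control sum. Singly, Mmp7 (152 and 135) and Ang4 (298 and 237) lay above the own file of Control replicate 2 (86.0 and 205). Itln1 lay on both sides of that file's value, and Lyz1, Defa24 and Defa17 lay below it. The part of the Paneth markers in the Gpx2 values was not tested.

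G6pdx was at 23.3 and 17.8 FPKM in AIR, below both Control libraries, and did not pass (log2 fold -0.42, 95% interval -0.84 to -0.00, limma adjusted p = 0.116). The fold was smaller with median-ratio scaling (-0.25, limma adjusted p = 0.331) and after GC correction (-0.22, limma adjusted p = 0.349). With the series-table value of 28.3 FPKM for Control replicate 2, G6pdx passed as lower (-0.46, limma adjusted p = 0.0220). In that setting 4 members passed (Gclc and Nqo1 higher, Gpx2 and G6pdx lower), beside 62.4% of all tested genes. Without Control replicate 2, 2 members passed (Gclc and Gpx2), beside 41.6% of all tested genes.

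Gclm, Txnrd1 and Srxn1 overlapped between the groups. Gclm was at 44.1 and 34.0 FPKM in AIR (log2 fold 0.09, 95% interval -0.31 to 0.49), and its fold was negative without AIR replicate 1 (-0.09). Txnrd1 was at 83.1 and 70.3 (log2 fold -0.03, 95% interval -0.40 to 0.34), and its sign turned with median-ratio scaling (0.15), upper-quartile scaling (0.10) and removal of the trend with GC content (0.22). Srxn1 was at 73.5 and 51.3 (log2 fold 0.33, 95% interval -0.30 to 0.97), or -0.03 with the series-table value of 64.3 FPKM for Control replicate 2. These intervals leave room for differences that the 2 libraries a group cannot show.

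The AIR libraries differed from each other in 1 direction over the members. All 10 were higher in AIR replicate 1 than in AIR replicate 3, while 49.1% of the 10415 tested genes were. The median log2 difference was 0.37 over the 9 tested members and -0.01 over all tested genes, and after median-ratio scaling all 9 were still higher in replicate 1 (47.0% of tested genes). As a ratio the gap was widest for the low members Slc7a11 and Hmox1. In the AIR + MPLA libraries 3 of the 10 members were higher in replicate 1 than in replicate 3 (54.6% of tested genes). In Control 8 of the 10 were higher in replicate 3 than in the own file of replicate 2 (49.9% of tested genes). This count depended on that file. With the series-table values Hmox1, Gsr, Srxn1 and Gpx2 turned to higher in replicate 2, and Gclc turned to higher in replicate 3. The enterocyte sum was also higher in AIR replicate 1 (18486 against 13613 FPKM), mainly through Apoa4 (5196 against 1853) and Apoa1 (5908 against 3748). Fabp1 (2907 against 4143) and Sis (418 against 499) were lower there, unlike the other enterocyte markers. The part of these markers in the gap between the AIR libraries was not tested.

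**Figure D2:**
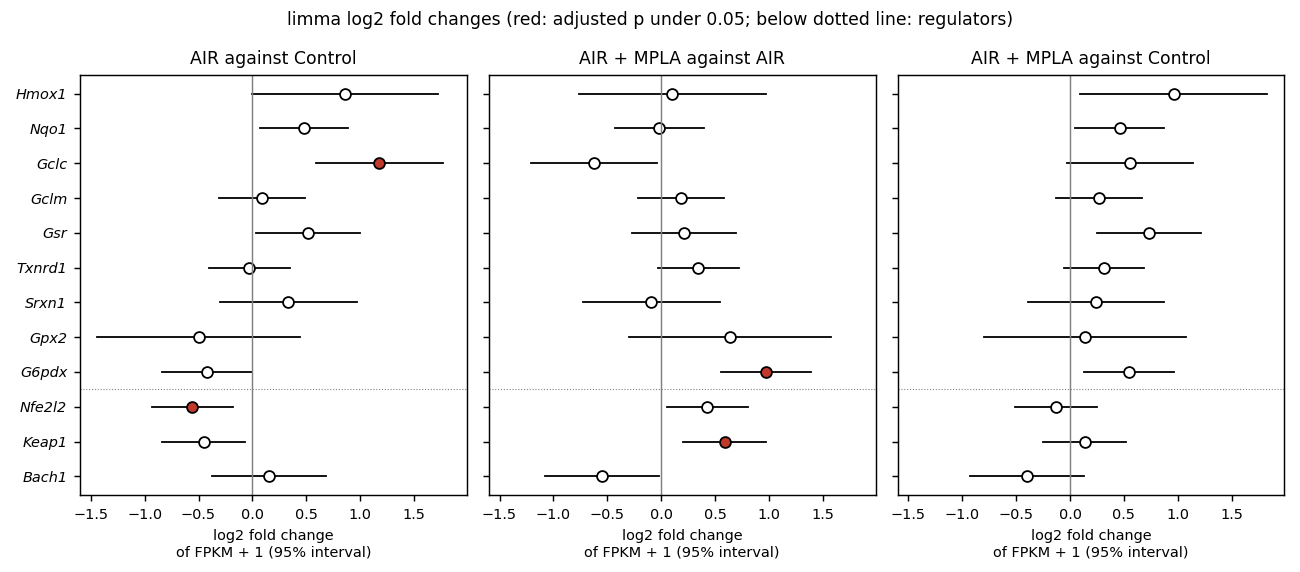
limma log2 fold changes of FPKM + 1 (horizontal axes) with 95% intervals for the 9 tested members and 3 regulators in the 3 comparisons, red where the adjusted p was under 0.05. Among members, Gclc in AIR against Control (1.18) and G6pdx in AIR + MPLA against AIR (0.97) passed.

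AIR + MPLA was compared with AIR for the members' levels with MPLA after irradiation. G6pdx rose 1.99-fold in mean level, and the other 8 tested members did not pass. G6pdx was at 38.1 and 43.9 FPKM in AIR + MPLA against 23.3 and 17.8 in AIR, with no overlap. Its mean was 41.0 ± 4.09 FPKM with MPLA and 20.6 ± 3.89 without (SD, n = 2), which gave a log2 fold of 0.97 with SE 0.18 (limma adjusted p = 0.0177). The fold ranged from 0.76 to 1.00 over the other scalings, the GC correction and the other pseudocount, and each of these passed. G6pdx overlaps Ikbkg on the chromosome, and without a stated strand setting their reads cannot be told apart. Ikbkg lay between 2.76 and 4.20 FPKM in all 6 libraries. In sum the crypt epithelium markers were lowest in AIR, as G6pdx was, but single markers differed. Both AIR libraries lay below both Control libraries for 6 of the 8. Epcam was at 591 and 510 FPKM in AIR and 535 and 522 with MPLA. Krt18 was at 173 and 121 in AIR and 114 and 135 in Control. With MPLA 4 of the 8 passed as higher than in AIR and none as lower. The part of these markers in the G6pdx rise was not tested. Leaving out any 1 of the 4 irradiated libraries ended the G6pdx call (log2 fold 0.78 to 1.15, limma adjusted p = 0.0707 to 0.148). In each of those 4 fits limma called 0 genes at all, with 2457 to 3665 genes at an unadjusted p under 0.05.

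The background in this comparison was 29.4% of tested genes called, 19.5% higher and 9.90% lower. Of the 9 tested members 1 was called, and the median log2 fold of the members was 0.18 beside 0.15 over all tested genes. The AIR + MPLA libraries lay apart from AIR and higher for 4 members (Gsr, Txnrd1, Gpx2 and G6pdx) and lower for Gclc, against 47.5% and 29.7% of all tested genes.

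Gclc was at 26.2 and 26.0 FPKM with MPLA, below both AIR libraries and above both Control libraries. The difference from AIR did not pass (log2 fold -0.62, 95% interval -1.21 to -0.04, limma adjusted p = 0.0955), but did once Control replicate 2 had its series-table values, which enter only the shared estimate of spread (limma adjusted p = 0.0489). Enterocyte markers passed as lower than in AIR in 2 of 7. Gpx2 was at 819 and 783 FPKM, above both AIR libraries (log2 fold 0.64, 95% interval -0.30 to 1.57, limma adjusted p = 0.247, or 0.0340 with the series-table values). Txnrd1 was at 99.3 and 95.4 FPKM (log2 fold 0.34, 95% interval -0.03 to 0.72, limma adjusted p = 0.132, or 0.0361 with the series-table values). Both folds were smaller with median-ratio scaling (Gpx2 0.45, limma adjusted p = 0.422, and Txnrd1 0.16, limma adjusted p = 0.473). The same held after GC correction (Gpx2 0.33, limma adjusted p = 0.559, and Txnrd1 0.07, limma adjusted p = 0.745). Gsr, at 189 and 191 FPKM, lay just above AIR replicate 1 (log2 fold 0.21, 95% interval -0.27 to 0.70). In the setting with series-table values 4 members passed (Gclc, Gpx2, Txnrd1 and G6pdx), beside 55.0% of all tested genes. Without Control replicate 2 only G6pdx of the 9 passed, beside 47.0%.

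The other 4 tested members overlapped between AIR + MPLA and AIR. Hmox1 was at 1.20 and 2.56 FPKM with MPLA (log2 fold 0.10, 95% interval -0.76 to 0.97). Nqo1 was at 57.7 and 73.6 (log2 fold -0.02, 95% interval -0.43 to 0.39), Gclm at 43.1 and 45.1 (0.18, -0.22 to 0.58) and Srxn1 at 54.4 and 61.1 (-0.09, -0.72 to 0.54). The sign turned with GC correction for Hmox1 and Nqo1 and with median-ratio scaling for Hmox1 and Gclm. Slc7a11, untested, was at 0.169 and 0.184 FPKM, below both AIR libraries and above both Control libraries.

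AIR + MPLA was also compared with Control, sharing libraries with both comparisons above. None of the 9 tested members passed limma, and 1.48% of tested genes were called. An unadjusted p under 0.05 was reached by 4 of the 9 members and by 1674 of the 10415 tested genes. With the series-table values 0 of 9 were called at the adjusted threshold, beside 10.6% of tested genes, and without Control replicate 2 again 0 of 9, beside 2.29%. The 7 members Hmox1, Nqo1, Gclc, Gclm, Gsr, Txnrd1 and G6pdx were higher in both AIR + MPLA libraries than in both Control libraries, as were 25.0% of tested genes. Of these, Hmox1 entered the test only through irradiated libraries. Lower in both were 0 of the 9 tested members and 24.5% of tested genes. Over the 9 members the median log2 fold was 0.46, beside -0.03 over all tested genes. Gsr was at 115 ± 22.5 FPKM in Control and 189.8 ± 1.26 in AIR + MPLA (SD, n = 2) and did not pass (log2 fold 0.73, 95% interval 0.25 to 1.21, limma adjusted p = 0.157). The Gsr fold was 0.93 without Control replicate 3 and 0.53 without Control replicate 2. With the series-table values it was 0.51 (limma adjusted p = 0.0511). G6pdx had a log2 fold of 0.55 (95% interval 0.13 to 0.97, limma adjusted p = 0.206). Hmox1 had a log2 fold of 0.96 (95% interval 0.10 to 1.83, limma adjusted p = 0.266). Srxn1 and Gpx2 overlapped between these groups, and both folds turned negative with the series-table values (-0.12 and -0.45, from 0.24 and 0.14).

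**Figure D3:**
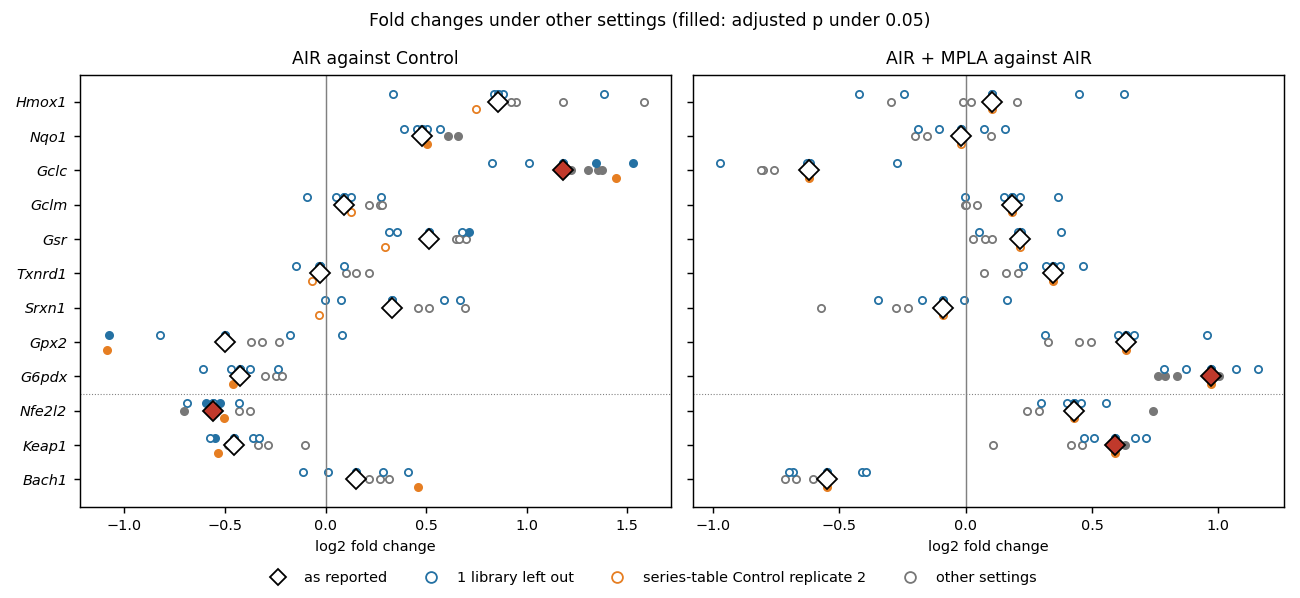
log2 fold changes (horizontal axes) of the 9 tested members and 3 regulators as reported (diamonds), in AIR against Control and AIR + MPLA against AIR, with 1 library left out (blue), Control replicate 2 from the series table (orange) and other settings (grey); filled symbols have an adjusted p under 0.05. Gpx2 in AIR against Control spreads from -1.09 to 0.08, and Gclc from 0.83 to 1.53.

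Within a library a ratio of 2 members does not depend on how libraries are scaled. Gclc stood to Gclm at 0.556 and 0.413 in Control, or 0.397 for replicate 2 in the series table, at 1.18 and 0.932 in AIR, and at 0.609 and 0.576 in AIR + MPLA. The mean ratio was 0.484 ± 0.101 in Control, 1.06 ± 0.177 in AIR and 0.592 ± 0.0231 in AIR + MPLA (SD, n = 2). Both AIR libraries were above all others. The ratio of Gclc to G6pdx, chosen after its values were seen, was 0.736 and 0.537 in Control, 2.24 and 1.78 in AIR, and 0.688 and 0.592 with MPLA. Its Control and AIR + MPLA libraries overlapped. No test was run on these ratios, which are given as a description.

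**Figure D4:**
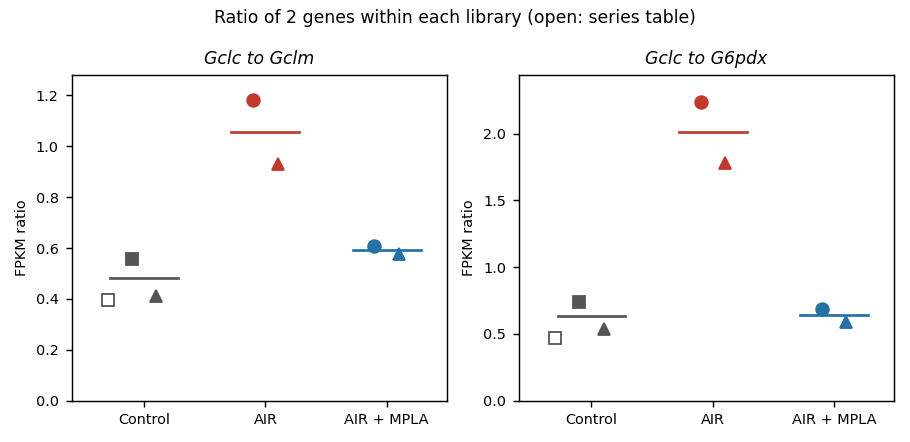
FPKM ratio (vertical axes, from 0) of Gclc to Gclm and of Gclc to G6pdx in each library, with group means as bars and the series-table value of Control replicate 2 as open squares. The AIR libraries lie at 0.932 and 1.18 for Gclc to Gclm, and every other library lies below 0.61.

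Of the regulators of the pathway 12 of 13 were tested, and 1 passed in each direction in both AIR against Control and AIR + MPLA against AIR. Nfe2l2 (gene ID 18024, chromosome 2, 75675513 to 75704663) fell after irradiation. It was at 88.0 and 83.7 FPKM in Control, 52.9 and 63.5 in AIR, and 79.9 and 76.9 with MPLA (AIR against Control, log2 fold -0.56, SE 0.16, limma adjusted p = 0.0418). The call was lost with median-ratio scaling (log2 fold -0.38, limma adjusted p = 0.132), without either AIR library (-0.43 and -0.69, limma adjusted p = 0.177 and 0.0729) and without either AIR + MPLA library (limma adjusted p = 0.116 for both). Nfe2l2 did not pass between AIR + MPLA and AIR (0.43, limma adjusted p = 0.0800). It passed as higher with MPLA after GC correction (0.74, limma adjusted p = 0.0310), with the series-table values (0.0158), in the 4 irradiated libraries alone (0.0433) and without Control replicate 2 or 3 (0.0431 and 0.0432).

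Keap1 (gene ID 50868, chromosome 9, 21229730 to 21239332) was at 14.0 and 16.1 FPKM in Control, 11.8 and 9.77 in AIR, and 15.7 and 17.7 with MPLA. Its difference between AIR and Control missed the threshold (log2 fold of -0.45, limma adjusted p = 0.0792), but passed as lower with the series-table values (-0.54, limma adjusted p = 0.00585) and without Control replicate 2 (-0.55, limma adjusted p = 0.0393). Keap1 rose with MPLA relative to AIR (log2 fold 0.59, SE 0.16, limma adjusted p = 0.0374). With GC correction the fold was 0.11 (limma adjusted p = 0.582), with median-ratio scaling 0.42 (limma adjusted p = 0.0991), and no single irradiated library could be left out with the call kept (0.47 to 0.71). Maff, a small MAF partner of NRF2, rose in AIR from 1.91 ± 0.867 to 4.55 ± 0.969 FPKM (SD, n = 2; log2 fold 0.95, limma adjusted p = 0.0347). That call was lost without any 1 of the 4 irradiated libraries (0.78 to 1.13, limma adjusted p = 0.0524 to 0.168). Mafg, another, fell with MPLA relative to AIR (9.12 ± 0.279 to 6.12 ± 0.137 FPKM; log2 fold -0.51, limma adjusted p = 0.0439). Bach1 (gene ID 12013, chromosome 16, 87698954 to 87733346) was at 11.5 and 7.69 FPKM in Control, 11.7 and 9.50 in AIR, and 7.80 and 6.11 with MPLA. Over all 6 libraries it did not pass (log2 fold 0.15 for AIR over Control, -0.55 for MPLA over AIR alone, and -0.40 for AIR + MPLA over Control; limma adjusted p = 0.633, 0.102 and 0.416). Bach1 passed as lower with MPLA than in AIR, at the same fold, without either Control library (limma adjusted p = 0.0263 and 0.0262), in the 4 irradiated libraries alone (0.0262) and with the series-table values (0.0144). In AIR against Control it passed as higher with the series-table values (0.46, limma adjusted p = 0.0253). In AIR + MPLA against Control no regulator passed.

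Other NRF2 targets, without glutathione transferases, numbered 25, of which 24 were tested. In AIR against Control 6 rose (Idh1, Cbr3, Akr1b8, Akr1c13, Ugdh and Ephx1) and none fell, so that 25% were called, beside 26.7% of all tested genes (8.05% higher). The median log2 fold was 0.15, beside -0.13 over all tested genes. Most of these act on carbonyls, epoxides or sugar nucleotides. Idh1, cytosolic isocitrate dehydrogenase and a source of NADPH, was at 235 and 209 FPKM in AIR and 87.1 and 77.8 in Control (log2 fold 1.42, SE 0.16, limma adjusted p = 0.00546). Cbr3, a carbonyl reductase, was at 28.1 and 16.5 FPKM against 2.02 and 3.43 (2.63, SE 0.36, limma adjusted p = 0.00755). Without AIR replicate 1 neither passed (1.33 and 2.26, limma adjusted p = 0.0534 and 0.0581).

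With MPLA relative to AIR, 4 of these targets rose (Pgd, Tkt, Abcc3 and Prdx6) and 1 fell (Idh1), or 20.8% called, beside 29.4% of all tested genes (19.5% higher). The median log2 fold was 0.41, beside 0.15 over all. Pgd and Tkt encode enzymes of the pentose phosphate pathway downstream of G6pdx. Pgd, 6-phosphogluconate dehydrogenase, was at 239 and 264 FPKM with MPLA and 137 and 117 in AIR (log2 fold 0.98, SE 0.19, limma adjusted p = 0.0190; 0.61 and 0.0515 after GC correction). Tkt, transketolase, was at 273 and 306 against 176 in both AIR libraries (0.71, limma adjusted p = 0.0257). Tkt did not pass with median-ratio scaling (0.52, limma adjusted p = 0.0632) or GC correction (0.25, limma adjusted p = 0.270). Idh1 was lower with MPLA than in AIR, at 143 and 149.6 FPKM (-0.59, limma adjusted p = 0.0371; -0.32 and 0.202 after GC correction).

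In AIR + MPLA against Control 3 of the 24 passed, all higher (Cbr3, Akr1b8 and Ephx1), beside 1.48% of all tested genes and 0 of the 9 tested members. Cbr3 was at 15.3 and 27.8 FPKM with MPLA (log2 fold 2.57, limma adjusted p = 0.0274). The call was lost without Control replicate 2 (2.29, limma adjusted p = 0.151), either AIR library (limma adjusted p = 0.0602 and 0.0604) or AIR + MPLA replicate 3 (2.16, limma adjusted p = 0.0974). Akr1b8, an aldo-keto reductase, was at 43.5 and 55.4 FPKM with MPLA, 59.5 and 40.0 in AIR and 16.7 and 17.7 in Control (AIR + MPLA against Control, log2 fold 1.46, limma adjusted p = 0.0365). Of the 6 libraries left out in turn, only without Control replicate 3 did it still pass (limma adjusted p = 0.0220), and the others gave limma adjusted p = 0.0532 to 0.215.

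Of 29 other glutathione, peroxide and superoxide genes 25 were tested. In AIR 6 fell and none rose (Txn2, Slc3a2, Txnrd3, Prdx2, Sod2 and Txnrd2). That is 24% called, beside 26.7% of all tested genes (18.7% lower), and the list's median log2 fold of -0.02 lay above the -0.13 over all tested genes. Txn2, Txnrd2 and Sod2 encode mitochondrial proteins. Txn2, mitochondrial thioredoxin, was at 132 and 211 FPKM in Control, 89.3 and 94.3 in AIR, and 178 and 197 with MPLA (AIR against Control, log2 fold -0.86, SE 0.24, limma adjusted p = 0.0396). Median-ratio scaling ended the call (-0.67, limma adjusted p = 0.0869), as did leaving out any library but Control replicate 2 (-0.52 to -0.89, limma adjusted p = 0.0706 to 0.152). With MPLA relative to AIR 6 rose and none fell (Slc3a2, Txnrd2, Prdx2, Txn2, Sod2 and Gpx1), or 24%, beside 29.4% of all tested genes (19.5% higher). The median log2 fold was 0.27, beside 0.15 over all. These comparisons share the AIR libraries.

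Slc3a2, the heavy chain that carries xCT to the membrane, was at 29.3 and 33.2 FPKM in Control, 21.2 and 21.4 in AIR, and 36.1 and 41.5 with MPLA. It was lower in AIR than in Control (log2 fold -0.53, limma adjusted p = 0.0417; -0.18 and 0.288 after GC correction, -0.36 and 0.134 with median-ratio scaling; 0.0844 to 0.140 without any 1 library but Control replicate 2). It was higher with MPLA than in AIR (0.83, limma adjusted p = 0.0176; 0.38 and 0.0698 after GC correction). Its partner Slc7a11, untested, reached 1 FPKM only in AIR replicate 1 (1.16). AIR replicate 3, at 0.205, lay close to AIR + MPLA (0.169 and 0.184). The ratio of Slc7a11 to Slc3a2 was 0.0549 and 0.00961 in AIR, 0.00100 and 0.00103 in Control, and 0.00469 and 0.00444 in AIR + MPLA. Txnrd2, the mitochondrial counterpart of Txnrd1, was at 6.47 and 6.56 FPKM in AIR and 12.2 and 12.9 with MPLA (log2 fold 0.85, limma adjusted p = 0.0213; 0.42 and 0.0736 after GC correction). As for every gene in AIR + MPLA against AIR, no call was made when 1 irradiated library was left out. None of the 25 passed in AIR + MPLA against Control.

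**Figure D5:**
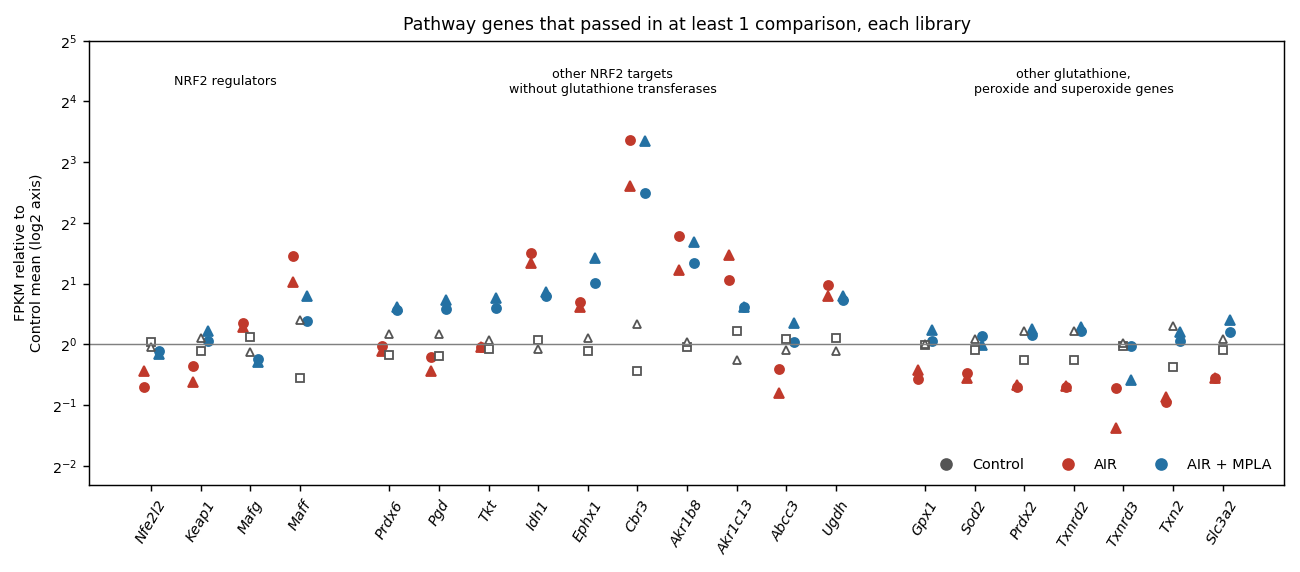
FPKM of each library relative to the Control mean (vertical axis, log2 scale) for the genes of the 3 pathway lists that passed in at least 1 comparison; circles are replicate 1, squares replicate 2 and triangles replicate 3, open grey for Control, red for AIR and blue for AIR + MPLA. Cbr3 stands highest in both irradiated groups, and Txn2, Txnrd2 and Prdx2 lie below Control in AIR.

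The genes most like the 3 most abundant tested members were sought by Pearson's r over the 6 libraries on log2(FPKM + 1), among about 1778 genes with an SD of at least 0.5. All r values here use the own file of Control replicate 2. Nearest to Gpx2 were Duox2 (r = 0.969), Pgc (0.949) and Bcl3 (0.915). Like Gpx2, these were lower in that file than in Control replicate 3 (Duox2 4.11 and 12.3 FPKM, Pgc 1.06 and 3.13, Bcl3 14.5 and 30.4). Nearest to Gsr were H6pd (r = 0.990), Tmsb10 (0.987) and Fut2 (0.986), and nearest to Txnrd1 were Chst4 (0.981), Rec8 (0.941) and Nfil3 (0.931). The 6 points share their libraries and groups, and the r values describe these libraries only.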

How the data were processed

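Crypt RNA was sequenced in 3 groups of 2 libraries. The tools named per the submitters' processing notes are Cufflinks, HISAT2, HTSeq and Trimmomatic, with the build GRCm38.p6; their versions, order and strand setting were not stated. The authors deposited FPKM per gene in 1 file per sample, whose value column is headed as counts, and in a series table. The files match the table within 1e-06 for 5 libraries and not for Control replicate 2. Gene IDs were matched to RefSeq GRCm38.p6 (21727 of 21878).

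limma 3.58.1 (R 4.3.3) fitted group means to log2(FPKM + 1) over all 6 libraries (3 residual degrees of freedom), using trended and robust variance moderation. Tested genes reached 1 FPKM in 2 or more libraries. Alternatives were other scalings, filters and a pseudocount of 0.1, fits to the 4 libraries of a comparison, removal of single libraries, the series-table values, a lowess correction for transcript GC content (span 0.3, known for 10335 of 10415 tested genes) and a replicate block. In fits with 1 library in a group, that library is assumed to vary like the rest. The code was tested on simulated data.

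The members, lists, tests and settings were chosen with earlier results of these data known. Values are given for all members, Nfe2l2, Keap1 and Bach1, and per list and comparison for the 2 called genes of smallest p in each direction. No list was tested as a set. Python 3.11.15, pandas 2.3.3 and matplotlib 3.10.9 made tables and figures.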

Additional observations from a re-analysis of the deposited data

How the results depend on the processing

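Of 49 named log2 folds, 17 of them called, 37 kept their sign under all alternatives run and 12 did not, none of which was called; the causes were not tested. Called members in AIR against Control numbered 1, against 2 with median-ratio or upper-quartile scaling, 4 with the series-table values and 0 to 2 with 1 library left out. In AIR + MPLA against AIR they numbered 1, against 4 with the series-table values and 0 to 1 with 1 library left out, and in AIR + MPLA against Control 0, against 0 to 1. Genes called in AIR against Control (2786) numbered 1427 in the 4 libraries alone, 6490 with the series-table values and 124 to 4329 with 1 library left out. Without AIR replicate 1 they were 124, without AIR replicate 3 933, without Control replicate 2 4329, and without AIR + MPLA replicates 1 and 3 1438 and 1436. In AIR + MPLA against AIR (3060) they numbered 1181 unfiltered, 4899 in the 4 libraries, 5724 with the series-table values, 1393 after GC correction and 0 to 4893 with 1 library left out, 0 being without any irradiated library. In AIR + MPLA against Control (154) they numbered 73 unfiltered, 57 with a 5 FPKM filter, 43 in the 4 libraries, 1108 with the series-table values, 290 after GC correction and 13 to 1645 with 1 library left out (1645 without Control replicate 3, 238 without Control replicate 2, and 13 to 45 without an irradiated library). Median-ratio scaling moved the all-gene median log2 fold from -0.13 to 0.03 and from 0.15 to -0.01, and the calls from 838 higher and 1948 lower to 1243 and 1116 (AIR against Control) and from 2029 and 1031 to 1018 and 1507 (AIR + MPLA against AIR).

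Same-numbered AIR and AIR + MPLA libraries deviated with r = -0.33 over 10415 genes, so with 2 pairs the numbers are not shown to pair them. A replicate block gave 3562 genes and 1 member, and changed 2 calls of named genes: Idh1 lost its call (limma adjusted p = 0.0539) and Bach1 gained one as lower with MPLA (limma adjusted p = 0.0372). A crossed block, chosen after seeing the data, gave 5722 genes and 3 members. No paired analysis was possible against Control because only number 3 is shared.

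Signs turned as follows in AIR + MPLA against AIR: Hmox1 -0.011 with median-ratio scaling and -0.29 after GC correction (-0.42 to 0.63 with 1 library left out), Nqo1 0.10 after GC correction (-0.19 to 0.16), Gclm -0.0017 with median-ratio scaling (-0.0019 to 0.37) and Srxn1 with 1 library left out (-0.35 to 0.16). In AIR against Control they turned for Txnrd1 with median-ratio scaling (0.15), upper-quartile scaling (0.10), GC correction (0.22) and 1 library left out (-0.15 to 0.091), for Srxn1 with the series-table values (-0.033) or a library left out (-0.0025 to 0.67), and by library for Gclm (-0.093 to 0.27), Gpx2 (-1.08 to 0.080) and Bach1 (-0.11 to 0.41). In AIR + MPLA against Control they turned with the series-table values for Srxn1 (-0.12; -0.093 to 0.58 by library) and Gpx2 (-0.45; -0.44 to 0.71), and after GC correction for Nfe2l2 (0.038). Depth is unknown, and 2 libraries a group limit the precision.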
